A study of Caenorhabditis elegans with 2 samples.

Results

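The 10 tubulin genes described here encode subunits of microtubules in Caenorhabditis elegans, and they were scored in a ChIP-seq (chromatin immunoprecipitation with sequencing) experiment on HRDE-1. They were chosen by name, as 10 of 19985 annotated protein-coding genes: tbb-2, tbb-1, tba-2, tba-1 and tbg-1 as broadly or germline expressed genes, and tba-6, tba-9, mec-7, mec-12 and tbb-4 as mainly neuronal ones. A gene was scored by the summits of called sites from 500 bp upstream of its annotated start to 500 bp past its annotated 3′ end. HRDE-1, also called WAGO-9, is a nuclear Argonaute protein of the germ line that binds small RNAs and is known for inherited gene silencing. Strain YL557 carries a transgene for HRDE-1 with GFP and FLAG at the C-terminus. Whether the animals also keep untagged HRDE-1 is not given in the labels. By the sample description the precipitation used an antibody to GFP, while the antibody field names hrde-1. Chromatin came from whole hermaphrodites, taken as young adults 48 hours after starved L1 larvae were released, in 2 biological replicates of 1 group. The data therefore hold no tissues and no second condition: the division into broad and neuronal genes is background knowledge, and a site cannot be placed in a tissue.

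Microtubules are polymers of alpha- and beta-tubulin pairs, and gamma-tubulin nucleates them at centrosomes. In C. elegans, tba-1, tba-2, tbb-1 and tbb-2 supply most of the tubulin of the germ line and the early embryo, where it builds the meiotic and mitotic spindles. mec-12 (alpha) and mec-7 (beta) make the special large-diameter microtubules of the touch receptor neurons, and tba-6, tba-9 and tbb-4 act in ciliated sensory neurons.

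Sites were found at the 4 main alpha- and beta-tubulin genes of the germ line, and the neuronal genes had weak sites or none. The authors' list of candidate sites held 24269 in replicate 1 and 30000 in replicate 2, and the list called on both together, the pooled list, held 30000. A shorter list of 1341 sites, thresholded by IDR (irreproducible discovery rate, a measure of how well ranks repeat), is called the IDR list here. Those were exactly the 1341 pooled candidates with the highest signal value, so a place in the list is a rank in the pooled data and does not by itself show a site in both replicates. The signal value is the authors' score of a site against a control. Its scale is unstated, so it was used to rank sites within 1 list only. Read depth is unknown.

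Of the 5 broad or germline tubulin genes 4 had an IDR summit in the window, and of the 5 neuronal genes 0 had one. Among all protein-coding genes 8.23% had one (1644 of 19985). The 4 genes were tba-1, tba-2, tbb-1 and tbb-2, with 6 IDR summits between them. Pooled candidates lay at 5 of 5 broad and 2 of 5 neuronal genes, against 55.7% of protein-coding genes. A summit among the 1341 strongest candidates of each replicate, taken separately, lay at the same 4 genes, against 5.36% of protein-coding genes. Counts are given without a test, since genes are not replicates of a condition and the list was chosen by name.

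The broad genes also had more pooled summits for their length. The 5 broad genes had windows of 14.9 kb in all with 18 pooled summits, or 1.21 per kb. The 5 neuronal genes had 25.0 kb with 4 pooled summits, or 0.16 per kb. Over all protein-coding genes the density was 0.392 per kb. It was 0.181 per kb for those of the X chromosome, which holds 3 of the 5 neuronal genes. For chromosomes I and III, which hold all 5 broad genes and also tba-6 and mec-12, it was 0.502 and 0.545 per kb. The median gene length was 1844 bp for the broad genes, 3470 bp for the neuronal genes and 2026 bp over all protein-coding genes. The part of gene length or of the chromosome in the difference was not tested.

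**Figure D1:**
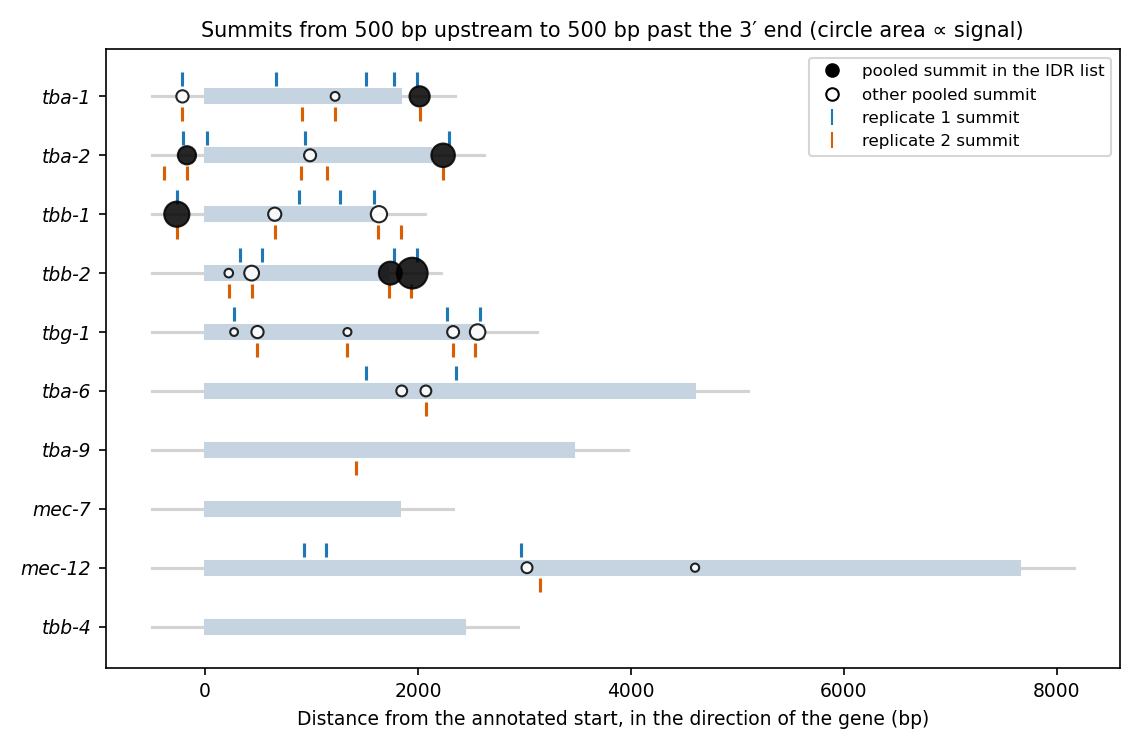
Summits at the 10 tubulin genes, drawn by distance in bp from the annotated start in the direction of the gene; blue boxes are the genes and grey lines the 500 bp on either side. Circles are pooled summits with an area proportional to the signal value, filled where they are in the IDR list, and ticks above and below are summits of replicates 1 and 2. The 6 filled circles all lie outside the gene they were scored at, at tba-1, tba-2, tbb-1 and tbb-2.

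The 6 IDR summits all lay outside the tubulin gene itself. Of them, 4 lay past the 3′ end, 2 lay upstream of the start and 0 lay inside the gene. Those past the 3′ end include the tbb-2 summits, which share an interval. The called intervals at tbb-2, at tba-1 and at the start of tba-2 did reach into the gene. Over all protein-coding genes and their windows, 42.8% of 1968 pairs of a gene and an IDR summit were past the 3′ end, 22.0% upstream and 35.2% inside. Within 500 bp of the start, 2 of the 10 tubulin genes had an IDR summit (tba-2 and tbb-1), against 2.96% of protein-coding genes. Within 500 bp of the 3′ end, 3 had one (tba-1, tba-2 and tbb-2), against 5.41%. Pooled candidates lay at both ends of all 5 broad genes and at neither end of any of the 5 neuronal genes, against 32.0% of protein-coding genes at the start and 39.7% at the 3′ end.

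tbb-2 (WBGene00006537, chromosome III, 4015910 to 4017627, minus strand), a beta-tubulin gene, had the strongest site of the family. Its highest pooled signal was 242.7, rank 56 of 30000. The strongest signal was lower at 99.64% of protein-coding genes, where a gene without a pooled candidate counted as lower. Replicate 1 gave 74.3 at this place (rank 56 in its own list) and replicate 2 gave 173.6 (rank 62). Both replicates thus placed it within their strongest 62 candidates. The summit at 4015680 lay 230 bp past the 3′ end of tbb-2, inside a coding exon of C36E8.4, a gene on the opposite strand whose 3′ end faces that of tbb-2. It lay 99 bp before the end of C36E8.4. A second IDR summit, at 4015886 with a signal of 134.3 (rank 293), lay 24 bp past the 3′ end of tbb-2, in the gap of 130 bp between the genes. Its counterparts had a signal of 47.7 in replicate 1 (rank 226) and 96.8 in replicate 2 (rank 314). Both summits belong to 1 interval of 492 bp, so they are not separate regions.

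The sequences at both tbb-2 summits are printed because their shared interval holds the strongest summit of the family, the one at 4015680. They are from the top strand of ce11 (RefSeq assembly WBcel235), 5′ to 3′, and the 21 bases centred on each summit are in capitals. The stretch of the C36E8.4 coding exon is chrIII:4015630-4015730, and the gap between the 3′ ends is chrIII:4015780-4015909.
C36E8.4 coding exon: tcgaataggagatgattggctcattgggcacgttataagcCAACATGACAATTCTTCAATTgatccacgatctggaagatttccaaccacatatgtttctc
Gap between tbb-2 and C36E8.4: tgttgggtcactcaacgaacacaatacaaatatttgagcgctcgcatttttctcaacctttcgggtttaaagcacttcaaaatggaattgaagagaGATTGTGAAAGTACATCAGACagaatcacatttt
The exon stretch had 40.6% G and C and the gap 36.9%. A piRNA gene, 21ur-13952 (4015917 to 4015937), is annotated just inside the tbb-2 gene on the same strand, and the weaker summit lay 31 bp past its end. Inside the tbb-2 gene the pooled list had 2 more summits. The one at 4017189, in a coding exon 438 bp from the start, had a signal of 55.9 (rank 2400). The other, at 4017404 in an intron, had 18.9 (rank 20890).

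tbb-1 (WBGene00006536, chromosome III, 10740868 to 10742432, minus strand), the other main beta-tubulin gene, had its IDR summit on the start side. The pooled signal was 162.1 (rank 173), with 55.4 in replicate 1 (rank 130) and 105.7 in replicate 2 (rank 240). The summit at 10742697 lay 265 bp upstream of tbb-1 and 113 bp upstream of rib-2, a heparan sulfate glycosyltransferase gene that starts 377 bp away on the opposite strand. The replicate summits lay 3 bp and 0 bp from it. At the 3′ end the pooled list had a weaker candidate at 10740798, with a signal of 67.6 (rank 1636), just under the lowest signal in the IDR list (73.95). It lay 70 bp past the 3′ end of tbb-1 and 26 bp upstream of K01G5.8, the next gene on the same strand. Replicate 1 had 28.0 there (rank 941) and replicate 2 had 38.1 (rank 3006).

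Of the 377 bp between the diverging starts of tbb-1 and rib-2, the 300 bases next to rib-2 are printed, beside the whole gap between tbb-1 and K01G5.8, since these are the strong and the weak site of 1 gene. The first is chrIII:10742510-10742809 and the second chrIII:10740773-10740867, both from the top strand, with the 21 bases centred on the summit in capitals.
Between tbb-1 and rib-2: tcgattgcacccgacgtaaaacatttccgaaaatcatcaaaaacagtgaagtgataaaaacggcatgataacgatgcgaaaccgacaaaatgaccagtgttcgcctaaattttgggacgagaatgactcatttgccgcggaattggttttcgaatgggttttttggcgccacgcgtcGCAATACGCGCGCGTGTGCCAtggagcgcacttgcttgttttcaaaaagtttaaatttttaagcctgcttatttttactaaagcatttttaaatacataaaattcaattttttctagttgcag
Between tbb-1 and K01G5.8: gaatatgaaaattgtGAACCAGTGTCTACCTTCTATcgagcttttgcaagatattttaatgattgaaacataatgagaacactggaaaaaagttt
The 300 printed bases of the start side had 39.7% G and C, and the 95 bases of the 3′ gap had 30.5%. In the sequence between tbb-1 and rib-2 the capitals include a short run of alternating C and G. A further candidate of tbb-1 lay in a coding exon, 655 bp from the start, with a pooled signal of 44.1 (rank 3896).

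In tba-2 both ends of the gene were in the IDR list, the only member for which this was so. tba-2 (WBGene00006529, chromosome I, 12964674 to 12966795, minus strand) encodes an alpha-tubulin. The 3′ site had a pooled signal of 141.4 (rank 255), with 30.8 in replicate 1 (rank 743) and 115.4 in replicate 2 (rank 195). Its summit at 12964558 lay 116 bp past the 3′ end of tba-2 and 21 bp from the start of C47B2.2, in a coding exon of that gene, which follows on the same strand after 94 bp. The start site at 12966965 had 84.9 (rank 989) and lay 170 bp upstream of tba-2 and 251 bp past the 3′ end of pbs-2, a proteasome subunit gene. The replicates differed at the start site: the nearest summit had a signal of 12.7 in replicate 1 (rank 7451) and of 73.4 in replicate 2 (rank 688). Replicate 1 alone would not place this site among its strongest 1341.

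tba-1 (WBGene00006528, chromosome I, 9785781 to 9787624, minus strand), the other main alpha-tubulin gene, had 1 IDR summit, on its 3′ side. The pooled signal was 104.6 (rank 603), with 35.2 in replicate 1 (rank 537) and 68.4 in replicate 2 (rank 818). The summit at 9785608 lay 173 bp past the 3′ end of tba-1. It fell in a coding exon of drsh-1, the Drosha gene of microRNA processing, 116 bp from its start. The genes lie on the same strand with 56 bp between them. At the start side of tba-1 a pooled candidate 212 bp upstream had 38.5 (rank 5198), with 7.14 in replicate 1 (rank 23497) and 29.8 in replicate 2 (rank 5283). The start side of tba-1 thus ranked far below its 3′ side in all 3 lists.

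All 6 IDR summits at tubulin genes also lay in the 500 bp window of another protein-coding gene, and 3 of them in a coding exon of it. The same shares over all IDR summits were not counted. The 1341 IDR summits made 1968 pairs with protein-coding genes, so shared summits are not particular to tubulin genes. The neighbours were drsh-1, C47B2.2, pbs-2, rib-2 and C36E8.4. These sites can therefore be credited as well to the neighbour as to the tubulin gene, and the lists give no means of telling them apart. Closely spaced genes on 1 strand are common in this species and are often transcribed together as operons. Whether these pairs are operons was not tested.

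**Figure D2:**
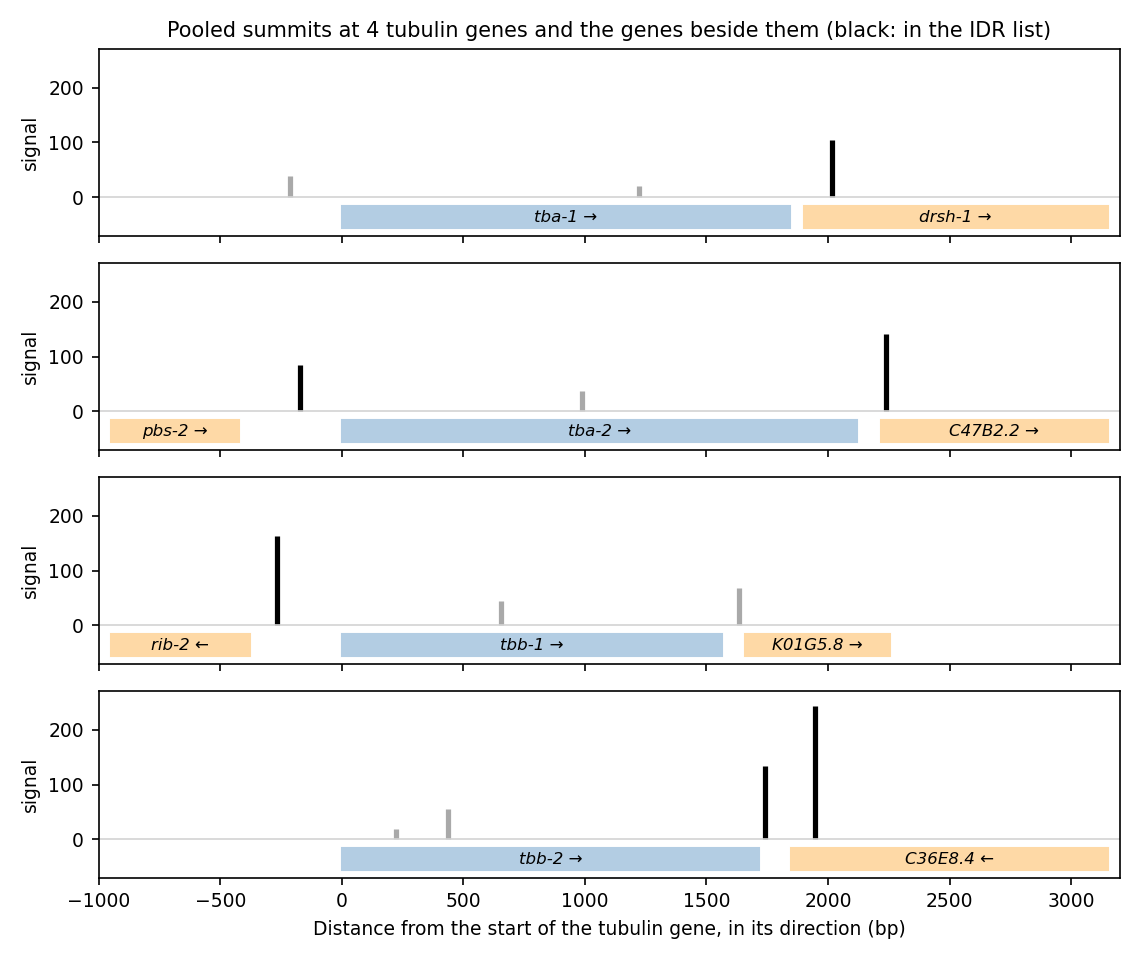
Pooled summits in the windows of tba-1, tba-2, tbb-1 and tbb-2, plotted by distance in bp from the start of the tubulin gene, with the signal value as bar height. Blue boxes are the tubulin genes and orange boxes the protein-coding genes beside them, cut at the edge of the plot, with arrows for their direction; black bars are in the IDR list and grey bars are not. The tallest bar is the tbb-2 summit with a signal of 242.7, inside C36E8.4.

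tbg-1 (WBGene00006540, chromosome III, 9626536 to 9629154, minus strand), which encodes gamma-tubulin, had 5 pooled candidates and 0 IDR summits. The strongest lay in its 3′ UTR, 57 bp before the 3′ end, with a signal of 61.5 (rank 1998). This summit also lay 64 bp past the 3′ end of hlh-11, a gene on the opposite strand with a gap of 6 bp to tbg-1. Replicate 1 gave 15.9 (rank 4258) and replicate 2 gave 47.8 (rank 1889). The pooled value was above the strongest at 88.25% of protein-coding genes, with genes without a pooled candidate counted as lower. It was below the lowest IDR signal of 73.95. A candidate on the start side, 493 bp inside the gene, had 37.9 (rank 5361). Of the 5 broad genes tbg-1 was the only one without a summit in the strongest 1341 of either replicate.

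The neuronal genes had 4 pooled summits, at tba-6 and mec-12 alone, and all 4 lay in introns of the tubulin gene itself. One of them, at 8995850 in tba-6, also lay in a coding exon of the opposite-strand gene F32H2.7. At the broad genes, 7 of 18 pooled summits lay in coding exons, 5 past the 3′ end, 3 upstream of the start, 2 in introns and 1 in a 3′ UTR. Each of the 5 broad genes had a pooled summit in a coding exon of its own, and 0 of the 5 neuronal genes had one, although a replicate 1 summit of tba-6 lay in one. These places were not set against those of all protein-coding genes, and no difference in place is read from 4 summits.

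mec-12 (WBGene00003175, chromosome III, 3131574 to 3139234, minus strand), the alpha-tubulin gene of touch receptor neurons, had the strongest site of the neuronal genes. Its pooled signal was 30.8 (rank 8415), in an intron 3025 bp from the start. The replicates disagreed on its strength: 16.8 in replicate 1 (rank 3682) and 12.7 in replicate 2 (rank 26218). A second intron summit, with 17.2 (rank 23802), had its nearest replicate summit 1458 bp away. tba-6 (WBGene00006532, chromosome I, 8994002 to 8998604, plus strand), an alpha-tubulin gene of ciliated neurons, had summits of 29.9 (ranks 8917 and 8920) in introns. Both lay within F32H2.7, a gene on the opposite strand inside tba-6. The strongest summit at tba-6 lay at a different place in each replicate. In replicate 1 it had 10.5 at 8995510, in a coding exon (rank 11596). In replicate 2 it had 23.5 at 8996077, in an intron (rank 8944).

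The 3 remaining neuronal genes, all on the X chromosome, had 0 pooled candidates. tba-9 (WBGene00006535, 3252800 to 3256269, plus strand), an alpha-tubulin gene, had a single summit in replicate 2, in an intron, with a signal of 11.4 and rank 29978 of 30000. mec-7 (WBGene00003171, 7774856 to 7776689, minus strand), the beta-tubulin gene of touch receptor neurons, and tbb-4 (WBGene00006538, 9434452 to 9436893, minus strand), a beta-tubulin gene of ciliated neurons, had none in any list. A gene without a candidate had no site above the lowest signal kept, which was 14.2 in the pooled list, and this does not show that no chromatin was recovered there. Sites were scarce on the X chromosome as a whole: 2.71% of its protein-coding genes had an IDR summit in the window, against 12.5% on chromosome III and 12.8% on chromosome I, which hold all 5 broad genes. The part of the chromosome in the difference between the groups was not tested. tba-6 and mec-12 lie on chromosomes I and III, and nothing about the chromosome is read from so few genes.

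**Figure D3:**
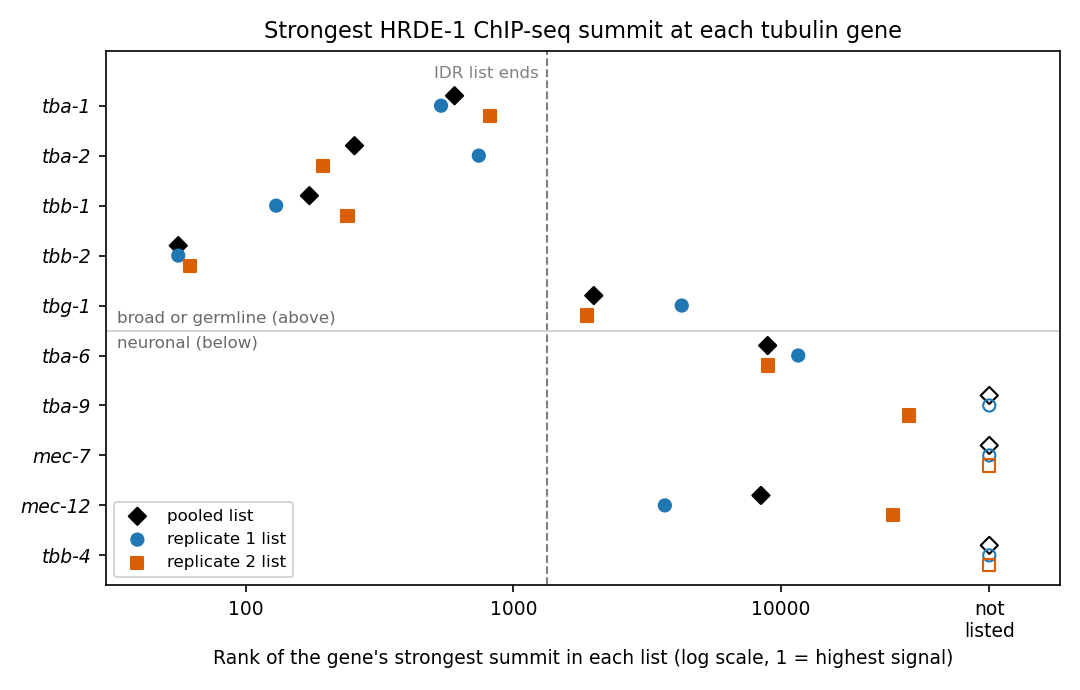
Rank of the strongest summit at each tubulin gene in the pooled list (diamonds), the replicate 1 list (circles) and the replicate 2 list (squares), on a log axis where 1 is the highest signal; open symbols at the right are genes with no summit in that list. The dashed line is rank 1341, where the IDR list ends. tba-1, tba-2, tbb-1 and tbb-2 lie to its left in all 3 lists, tbg-1 and the 5 neuronal genes to its right.

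Ordered by their strongest pooled signal, the genes ran tbb-2, tbb-1, tba-2, tba-1, tbg-1, mec-12 and tba-6, followed by the unlisted tba-9, mec-7 and tbb-4. The order of neighbours was not the same in each replicate. Replicate 1 ranked tba-1 (537) above tba-2 (743), whereas replicate 2 ranked tba-2 (195) above tbb-1 (240) and tba-1 last of the 4 (818). tbb-2 came first, and tbg-1 came after the 4 main genes, in both. mec-12 ranked above tbg-1 in replicate 1 (3682 against 4258) and below tba-6 in replicate 2 (26218 against 8944). The place of tba-2 among tbb-1, tba-2 and tba-1, and the order of mec-12 and tba-6, thus differed between the replicates.

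Each replicate list had a summit near every IDR summit at a tubulin gene, within 52 bp in replicate 1 and within 16 bp in replicate 2. The IDR summits come from the pooled list, called on both replicates together, so some nearness is built in. The nearest summits were among the strongest 1341 of replicate 2 for 6 of 6 and among those of replicate 1 for 5 of 6. These sites already had a high pooled signal, and the same shares over all IDR summits were not counted. The exception was the start site of tba-2. Near the end of the IDR list, the lowest member inside it was that tba-2 site (84.9), and the highest outside it was the 3′ candidate of tbb-1 (67.6).

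Tubulin genes are similar copies, so the uniqueness of their sequence was measured. The proteins of tbb-1 and tbb-2 were 98.2% identical and those of tba-1 and tba-2 97.5%, while an alpha and a beta chain (tba-1 and tbb-1) shared 41.3% and gamma-tubulin and tbb-1 32.2%. The coding sequences of tbb-1 and tbb-2 were 85.5% identical and those of tba-1 and tba-2 88.2%. In all 6 cases, 100% of the 36-base words of the interval around an IDR summit occurred once in the genome. Within the genes themselves the share ran from 97.8% (tbb-2) to 100%, and with 50-base words from 99.4% (tba-9) to 100%. Over all IDR intervals the median share of unique 36-base words was 100%, and 10% of the intervals had 87.2% or less. The read length is not given in the sources used here.

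The longest coding stretch that tbb-2 shares with mec-7 is shown because it is the place where a read of 50 bases, lying wholly inside it, would match both genes. It lies at chrIII:4016656-4016708 in tbb-2 and chrX:7775573-7775625 in mec-7, and is given here from the minus strand, on which both genes lie.
Shared by tbb-2 and mec-7: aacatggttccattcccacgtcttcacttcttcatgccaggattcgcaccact
No pooled summit lay in it, and mec-7 had no summit in any list.

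Base composition at the IDR summits of the tubulin genes was set beside the median of the IDR list alone, since the spread over that list was not computed. The 301 bases centred on the 6 IDR summits held between 32.9% and 42.5% G and C, and the median over 1319 nuclear IDR summits was 38.2%. The candidates in coding exons of the broad genes, all outside the IDR list, varied more. They had 55.5% at tba-2, 52.5% at tbb-2, 50.5% at tbb-1 and 45.2% at tba-1, and at tbg-1 1 had 43.9% and the other 2 had 37.9%. Of the 6 IDR summits 0 lay in sequence masked as repeats in the RefSeq genome. Of the weak candidates, the tbb-2 summit of 18.9 and the mec-12 summit of 17.2 did. The share of masked summits over the whole lists was not computed, so nothing about the tubulin genes is read from these counts.

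Other lists of microtubule genes, of dividing cells and of neurons, were scored in the same windows. Of 51 further genes in 5 lists, 15 had an IDR summit (29.4%, against 8.23% of protein-coding genes). These lists were written from general knowledge with earlier results of these data known. Of 13 spindle, severing and motor genes 6 had one, of 12 genes of the gamma-tubulin complex and centrosome 4, of 6 tubulin folding genes 2, of 15 neuronal microtubule genes 2 and of 5 other tubulin genes 1. A summit among the 1341 strongest candidates of each replicate lay at 12 of the 51 genes, against 5.36% of protein-coding genes. It lay at 1 of the 15 neuronal microtubule genes. A pooled candidate lay at 12 of 12 centrosome, 13 of 13 spindle, 6 of 6 folding, 11 of 15 neuronal microtubule and 2 of 5 other tubulin genes, against 55.7% of protein-coding genes. The median gene length was 3848 bp for the 51 genes and 2026 bp over all protein-coding genes. The part of gene length in these shares was not tested.

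The strongest site of these lists was at klp-18 (signal 271.6), a kinesin gene of the meiotic spindle, in its 3′ UTR and 11 bp before its 3′ end. spd-5, which encodes the scaffold of the centrosome, had 3 IDR summits, the strongest of 222.1 lying 2 bp past its 3′ end. mei-2, a subunit of the microtubule-severing katanin, had 203.6 at 102 bp past its 3′ end. klp-19 (142.1), a chromosome-associated kinesin gene, air-1 (138.0), the Aurora A kinase gene, and zen-4 (131.3), the gene of the central spindle kinesin, also had one. So did zyg-9 (121.1), a microtubule polymerase gene, klp-7 (117.7), a depolymerising kinesin gene, spd-2 (103.8), a centrosome gene, and dhc-1 (89.7), the dynein heavy chain gene. Of the folding cofactor genes, tbcc-1 had 97.9 and tbce-1 had 81.5. Except at air-1 and klp-7, the summits with these signals also lay in the window of another gene. Those of spd-5, spd-2 and dhc-1 lay in coding exons of hcp-6, mdt-31 and try-15. The zen-4 summit lay in the snoRNA gene M03D4.78, and that of mei-2 lay 196 bp upstream of bag-1. These sites too can be credited as well to the neighbour. The subunits of the gamma-tubulin complex, gip-1, gip-2 and mzt-1, had pooled candidates of 23.7, 49.4 and 53.1, and none in the IDR list.

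Where neuronal microtubule genes had IDR summits, these lay in introns beside tRNA genes or in a pseudogene. unc-104, a kinesin gene of synaptic vesicle transport, had 2. The one of 89.8 lay 35 bp and 174 bp upstream of a pair of tRNA genes, and the one of 92.2 lay in an annotated pseudogene. unc-33, a gene of axon outgrowth, had 1 of 99.9 at 45 bp upstream of a tRNA gene. tba-7, an alpha-tubulin gene outside the 10, had 1 of 104.2 in an intron 327 bp from its start, inside the annotated non-coding RNA genes T28D6.13 and T28D6.15. Of the other tubulin genes, tbb-6 had a pooled candidate of 22.1, and tba-4, tba-5 and tba-8 had none.

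**Figure D4:**
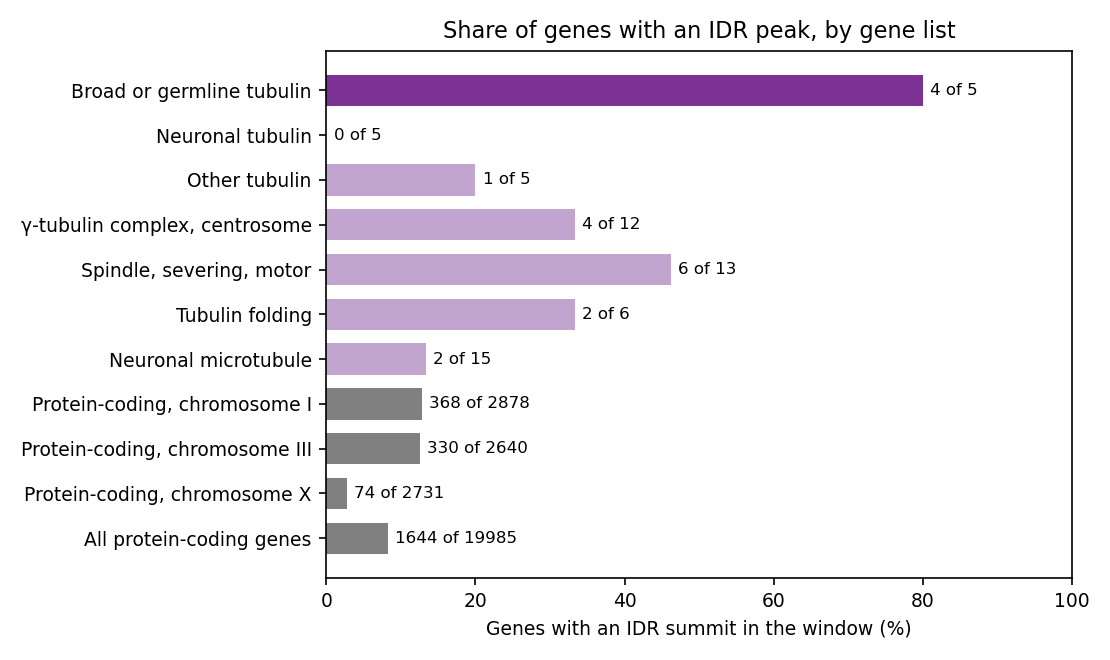
Percentage of genes with an IDR summit from 500 bp upstream of the start to 500 bp past the 3′ end, for the tubulin genes (dark), other lists of microtubule genes (light) and all protein-coding genes by chromosome or in total (grey); the counts stand beside the bars. The bar of the broad or germline tubulin genes reaches 80% (4 of 5), that of the neuronal tubulin genes 0% (0 of 5) and that of all protein-coding genes 8.23%.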

How the data were processed

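The deposited files were lists of called sites with 10 columns, without read counts. Per the submitters' file listings, candidate sites were called on the alignment of each replicate, and on both together, against a control alignment, and a further list was thresholded by IDR. Neither aligner nor caller, nor any version or the cutoff of the IDR step, is named there, and the control was not analysed here. The signal value deposited by the authors for each site has no stated scale. Lists on ce11 were used. Those on ce10 were not used here.

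Summits were column 2 plus column 10, written 1-based. No list interval ran past the end of its chromosome in WBcel235. Genes and features came from Ensembl release 115 (46926 genes). All 61 listed gene names matched. Window searches were checked on simulated data. Proteins were translated from the longest annotated coding sequence and aligned with Biopython 1.88 (BLOSUM62), and word uniqueness counted both strands. Other steps used Python 3.11.15 and pandas 2.3.3. The members and lists were chosen with earlier results of these data known. All 10 members were named. From the other lists every gene with an IDR summit was named, up to 6 a list, with gip-1, gip-2, mzt-1, tbb-6, tba-4, tba-5 and tba-8 added after their values were seen. No test was made: the labels give 1 group, and with 2 replicates both values are shown. The alternatives were other windows, interval overlap, RefSeq gene bounds, stronger peaks and single replicates.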

Additional observations from a re-analysis of the deposited data

How the results depend on the processing

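With only the 500 bp on either side of the start, the counts with an IDR summit were 2 of the 10 tubulin genes, a difference of 2 between the broad and the neuronal genes, and 7 of the 51 other microtubule genes, and 1 tubulin gene (tbb-1) was in the top candidates of both replicates. In place of these the window over the whole gene gave 4, 4, 15 and 4. This window leaves out the 3′ ends by construction. With only the 3′ end the number of tubulin genes was 3, with a window of 200 bp 3 (tbb-1 and the strongest tbb-2 site fell outside it, leaving signals of 67.6 and 134.3), with 1000 bp 5, and with interval overlap, RefSeq bounds, the stronger 670 IDR peaks or either replicate alone 4. The neuronal genes had 0 in each of these. The median over the 10 genes of the rank of the strongest summit was 5206.5 in the pooled list, and from 3970 in replicate 1 alone to 5416.5 in replicate 2 alone; replicate 1 has the shorter list. It could not be given for the start or the 3′ end alone, where the middle genes were not listed. No paired analysis was possible because the labels give 1 group. The precision is limited by the unknown depth and by 5 genes in each group.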

Other observations

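Just outside the windows, tbg-1 had an IDR peak 869 bp upstream of its start, with a signal of 135.1 (rank 285). It lay beyond rpac-19, a gene of RNA polymerases I and III whose own 3′ end is 91 bp upstream of tbg-1. At the same distance range, tba-9 had a pooled candidate of 17.2 at 635 bp past its 3′ end, and mec-7 one of 27.5 at 829 bp past its 3′ end, inside deg-1, an ion channel gene. tbb-4 had none within 1000 bp.

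The protein-coding genes whose strongest summit was most like that of tbb-2, by Euclidean distance in log10 rank over the pooled list and both replicate lists, were rpl-11.1 and pygl-1, with a shared summit (distance 0.0584, pooled signal 247.1), and Y22D7AL.10 (0.0851, 256.3). Those most like mec-12 were C37C3.17 (0.0345, pooled signal 30.7), D1007.19 (0.0675, 29.0) and vms-1 (0.0749, 32.0). The 3 lists share reads, so this is a description of strength alone.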
